A study of Mus musculus with 7 samples.

Results

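The 8 genes described here encode 7 small heat shock proteins of striated muscle (Hspb1, Hspb2, Hspb3, Hspb6, Hspb7, Hspb8 and Cryab) and the co-chaperone Bag3. They were taken by name from the count table of mouse left ventricles after its gene identifiers had been matched to mouse symbols. All 8 were present once, and all 8 were among the 13894 genes with enough counts to be tested, out of 20927 entries. Small heat shock proteins share an alpha-crystallin domain, work without ATP, and hold unfolding proteins in a state from which other chaperones can refold them or pass them on for degradation. Bag3 bridges small heat shock proteins and Hsp70, and in striated muscle it takes part in the selective autophagy of damaged Z-disc proteins such as filamin. Several of these proteins bind desmin, actin, filamin or titin, and inherited variants of Cryab, Hspb8 and Bag3 are known from myopathies and cardiomyopathies.

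The series compared left ventricles of 3 wild-type mice (WT, replicates 1, 3 and 4) with those of 4 mice homozygous for the titin missense variant A178D (replicates 1 to 4), all labelled as strain C57BL/6J. No treatment is named in the labels, and the age and sex of these 7 mice are not given in the sources used here. Poly(A) RNA was sequenced with a strand-keeping kit. The variant had been placed in the titin gene of C57BL/6N embryonic stem cells by CRISPR-Cas9, together with silent base changes that create a restriction site, and the line had been crossed for several generations to C57BL/6J, so that the silent changes, and any C57BL/6N sequence left near titin, go with the A178D genotype. A missense variant leaves the gene to be transcribed, and counts per gene cannot show which allele was read. Titin itself (Ttn) stood at 7245, 6247 and 6486 CPM (counts per 1000000 of library size, scaled with TMM factors) in WT replicates 1, 3 and 4, and at 5361, 6173, 6490 and 4087 CPM in A178D replicates 1 to 4. The genotypes overlapped, and A178D replicate 4 was the lowest heart.

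Depth ranged from 33080675 counts in A178D replicate 4 to 54245530 in WT replicate 3. The libraries also differed in how counts depended on transcript length and GC content. In A178D replicate 4, the fitted trend of transcripts under 1500 bases had a median of 0.20 (log2) above the mean of all hearts, and that of transcripts over 8000 bases a median of -0.18. WT replicate 1 lay on the other side, with a median of -0.15 for the short transcripts and 0.07 for the long ones, while in the other 5 hearts the short-transcript median lay between -0.04 and 0.04. These length limits were chosen after the data were seen. The 8 genes are short, from 781 joined exon bases in Hspb3 to 2769 in Hspb7, so their values are given with and without this trend and with and without A178D replicate 4.

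The tissue label was checked against marker genes. The 10 cardiomyocyte markers summed to 113911, 120561 and 120395 CPM in the WT hearts and to 118070, 115564, 114138 and 127274 CPM in the A178D hearts, with Myh6 as the most abundant, and none of the 10 was called. Of 5 atrial markers, Bmp10 had 0 counts in all 7 hearts, Sln was at 0 in 6 hearts and Myl7 did not exceed 0.152 CPM. Of the atrial list only Nppa and Myl4 had enough counts to be tested, and they are given with the other markers.

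Across all tested genes, edgeR called 327 at an adjusted p under 0.05, 145 of them higher and 182 lower in A178D. Of the 8 genes, 2 were called, Hspb6 and Hspb7, both higher, where 2.35% of all tested genes were called in either direction. The log2 fold change was above 0 in 7 of the 8 and in 50.5% of all tested genes, with a median of 0.29 beside 0.0023 over all tested genes. The lowest A178D heart exceeded the highest WT heart for 4 of the 8, and for 7.61% of all tested genes. An unadjusted p under 0.05 with a higher value in A178D was reached by 6 of the 8 and by 7.93% of all tested genes. The number of calls over all genes changed when 1 heart was left out, which also leaves fewer hearts to test. It was 53 without WT replicate 3, 82 without WT replicate 4, 90 without A178D replicate 1, 190 without A178D replicate 3 and 216 without A178D replicate 2. It rose to 453 of 13789 tested genes without WT replicate 1 and to 369 of 13846 without A178D replicate 4. In each of these fits 3 of the 8 were called. Without WT replicate 3, without WT replicate 4 or without A178D replicate 1, the number of called genes among the 8 was 0, and 4, 4 and 5 of the 8 then had an unadjusted p under 0.05 in edgeR, as did 12.5%, 13.6% and 13.1% of all genes tested in these fits. DESeq2 on all 7 hearts called 4 of the 8, and 686 (4.94%) of all tested genes.

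**Figure D1:**
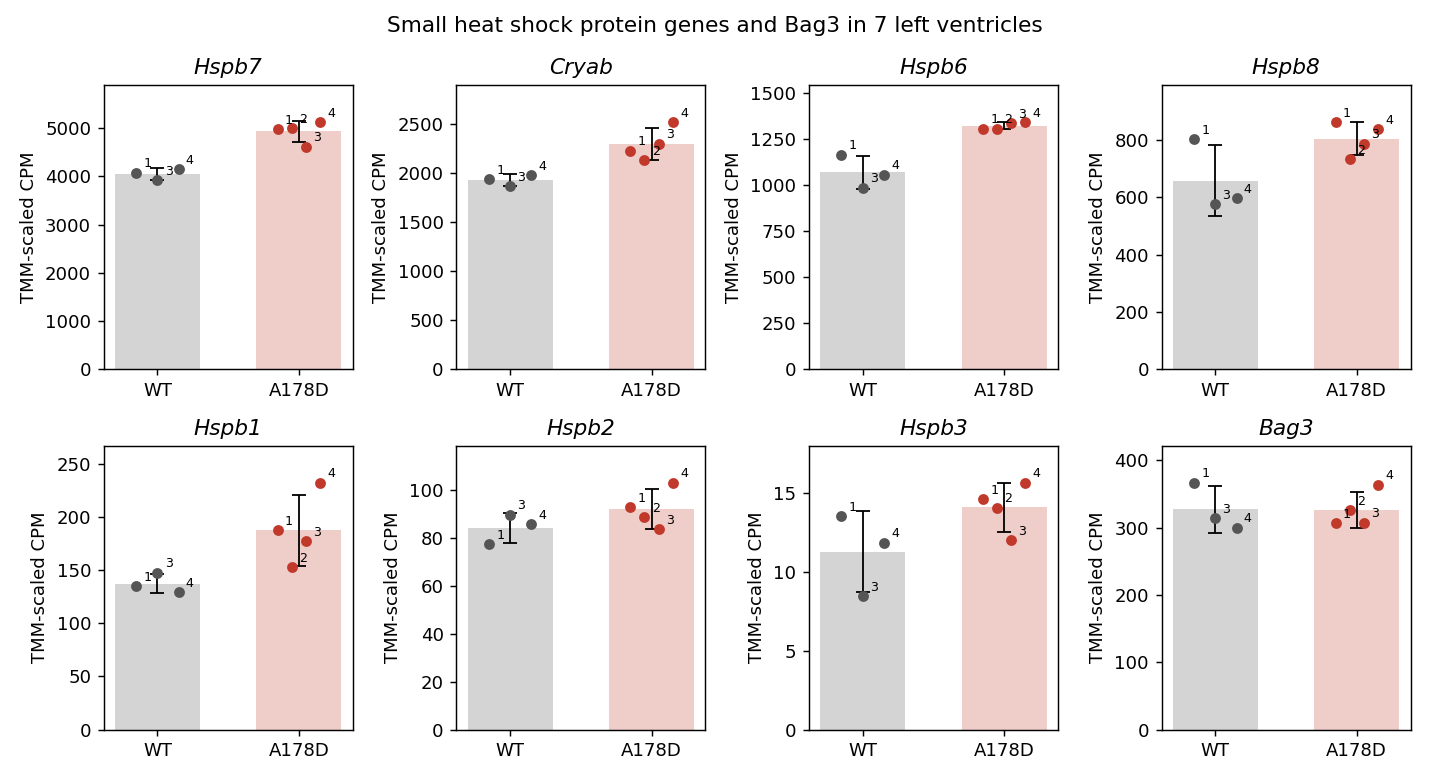
TMM-scaled CPM of the 8 genes (vertical axes, each from 0) in 3 WT and 4 A178D left ventricles. Points are hearts with their replicate numbers, bars are means and whiskers are SD. Every A178D heart lies above every WT heart for Hspb7, Cryab, Hspb6 and Hspb1, and the genotypes overlap for Hspb8, Hspb2, Hspb3 and Bag3.

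Hspb7, a small heat shock protein of heart and skeletal muscle that binds filamin and actin, was the most abundant member. It stood at 4076, 3915 and 4154 CPM in WT replicates 1, 3 and 4, and at 4985, 5008, 4614 and 5131 CPM in A178D replicates 1 to 4. The lowest A178D heart (replicate 3) was above the highest WT heart (replicate 4). The means were 4049 ± 122 CPM (SD, n = 3) and 4935 ± 223 CPM (SD, n = 4). Hspb7 rose by 21.9% in A178D, a log2 fold change of 0.29 with an SE of 0.062 (95% confidence interval 0.15 to 0.42, edgeR adjusted p = 0.0299). With offsets for length and GC content the log2 fold change was 0.24 (edgeR adjusted p = 0.0393), and without A178D replicate 4 it was 0.27 (edgeR adjusted p = 0.0269). The call was lost without WT replicate 3 (edgeR adjusted p = 0.175), WT replicate 4 (0.0903), A178D replicate 1 (0.105) or A178D replicate 2 (0.0694). Over all alternatives the adjusted p ranged from 0.00103 to 0.175.

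Cryab, alpha-B crystallin, a chaperone of desmin filaments and of the spring region of titin, was next in abundance. Its values were 1939, 1867 and 1980.4 CPM in the WT hearts and 2231, 2130.1, 2301 and 2522 CPM in the A178D hearts. The genotypes did not overlap, and A178D replicate 4 was the highest heart. The means were 1929 ± 57.6 CPM (SD, n = 3) and 2296 ± 166 CPM (SD, n = 4). The log2 fold change of Cryab was 0.25 with an SE of 0.069 (95% confidence interval 0.10 to 0.40), and it was not called (edgeR adjusted p = 0.0789). With the length and GC offsets it was 0.15 (edgeR adjusted p = 0.172), and without A178D replicate 4 it was 0.20 (edgeR adjusted p = 0.083). DESeq2 called Cryab (adjusted p = 0.0198), and the adjusted p over all alternatives ranged up to 0.281. With the trend taken out of the CPM, the A178D hearts (2208, 2135, 2338 and 2227 CPM) still lay above the WT hearts (2106, 1868 and 2051 CPM), by a smaller distance.

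Hspb6, also named Hsp20, is a small heat shock protein of cardiac and smooth muscle and a substrate of protein kinase A. Its values were 1165, 986 and 1058 CPM in the WT hearts and 1308, 1307, 1338 and 1344 CPM in the A178D hearts. The 4 A178D hearts lay close together, with an SD of 1.48% of their mean, and all were above WT replicate 1, the highest WT heart. The means were 1069 ± 90.5 CPM (SD, n = 3) and 1324 ± 19.7 CPM (SD, n = 4). Hspb6 rose by 23.8%, a log2 fold change of 0.31 with an SE of 0.069 (95% confidence interval 0.16 to 0.46, edgeR adjusted p = 0.0328). The call was lost with the length and GC offsets, which gave a log2 fold change of 0.24 (edgeR adjusted p = 0.0805). It was also lost without WT replicate 3 (edgeR adjusted p = 0.192), WT replicate 4 (0.123), A178D replicate 1 (0.0986), A178D replicate 2 (0.069) or A178D replicate 3 (0.0889), and was kept without A178D replicate 4 (0.0333). Over all alternatives the adjusted p ranged from 0.00156 to 0.192. With the trend taken out of the CPM, the lowest A178D heart, replicate 4 at 1227 CPM, and the highest WT heart, replicate 1 at 1219 CPM, nearly met.

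Hspb1, the stress-inducible small heat shock protein that binds actin and intermediate filaments and is phosphorylated by Mapkapk2, had 135, 147 and 129 CPM in the WT hearts. In the A178D hearts it had 188, 153, 177 and 232 CPM. The genotypes did not overlap, A178D replicate 2 was only just above WT replicate 3, and A178D replicate 4 was the highest. The means were 137 ± 9.20 CPM (SD, n = 3) and 187 ± 33.1 CPM (SD, n = 4), an SD of 6.71% and 17.7% of the mean. Hspb1 had the largest log2 fold change of the 8, 0.45 with an SE of 0.11 (95% confidence interval 0.21 to 0.69), and it was not called (edgeR adjusted p = 0.0562). It was called with the length and GC offsets, at a smaller log2 fold change of 0.33 (edgeR adjusted p = 0.0348), by DESeq2 (adjusted p = 0.00491), with no filter on low counts (edgeR adjusted p = 0.0234), without A178D replicate 4 at 0.33 (edgeR adjusted p = 0.0498) and without A178D replicate 2 at 0.54 (edgeR adjusted p = 0.0231). Over all alternatives the adjusted p ranged from 0.00491 to 0.211. The fitted length and GC trend at Hspb1 was 0.30 (log2) in A178D replicate 4 and -0.13 in WT replicate 1.

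Hspb8, the small heat shock protein that binds Bag3 directly, had 803, 577 and 597 CPM in the WT hearts. In the A178D hearts it had 864, 734, 788 and 838 CPM. WT replicate 1 lay within the A178D values and the other WT hearts below them, so the genotypes overlapped. The means were 659 ± 125 CPM (SD, n = 3) and 806 ± 57.6 CPM (SD, n = 4). The log2 fold change was 0.29 with an SE of 0.10 (95% confidence interval 0.065 to 0.52), not called (edgeR adjusted p = 0.180). Without WT replicate 1 it was 0.46 and called (edgeR adjusted p = 0.00698), without WT replicate 3 it was 0.20, and without A178D replicate 4 it was 0.27. With the length and GC offsets it was 0.21. The adjusted p over all alternatives ranged up to 0.485.

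Bag3 had 367, 314 and 299.9 CPM in the WT hearts and 306, 326, 307 and 364 CPM in the A178D hearts. The genotypes overlapped over nearly their whole range, and the highest and the lowest heart were both WT. The means were 327 ± 35.1 CPM (SD, n = 3) and 326 ± 26.8 CPM (SD, n = 4). The log2 fold change of Bag3 was -0.0048 with an SE of 0.085 (edgeR adjusted p = 0.987), and its 95% confidence interval of -0.19 to 0.18 corresponds to a difference from -12.2% to 13.2%. The sign of this value turned without WT replicate 1, where it was 0.089, without A178D replicate 1 and without A178D replicate 3, and over all alternatives it lay between -0.064 and 0.089. It was -0.062 with the length and GC offsets and -0.061 without A178D replicate 4. The ratio of Hspb8 to Bag3 in level per kb was 2.88, 2.41 and 2.62 in the WT hearts and 3.71, 2.96, 3.37 and 3.03 in the A178D hearts. These ratios did not overlap between the genotypes, by a small margin, although Hspb8 did. They were not computed with the length and GC trend taken out. With that trend taken out, WT replicate 1 had 854 CPM of Hspb8 beside 379 CPM of Bag3. A178D replicate 2 then had 734 CPM of Hspb8 beside 325 CPM of Bag3. The 3 other ratios computed between members (Cryab to Hspb2, Hspb7 to Cryab and Cryab to Hspb1) overlapped, and no test was made of any of the 4.

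Hspb2 and Hspb3 encode a pair of muscle small heat shock proteins that form a complex with each other. Hspb2 had 77.3, 89.7 and 85.7 CPM in the WT hearts and 92.8, 88.6, 83.7 and 103 CPM in the A178D hearts. The genotypes overlapped, with A178D replicate 4 highest. Its log2 fold change of 0.13 with an SE of 0.083 was not called (edgeR adjusted p = 0.482), and with the length and GC offsets it was -0.0081 (edgeR adjusted p = 0.959), so its sign depended on that correction. Without A178D replicate 4 it was 0.070. Hspb3, the least abundant member, had 13.5, 8.46 and 11.8 CPM in the WT hearts and 14.6, 14.0, 12.0 and 15.6 CPM in the A178D hearts. WT replicate 3 was the lowest heart, WT replicate 1 lay within the A178D values, and the genotypes overlapped. Its log2 fold change of 0.32 with an SE of 0.15 was not called (edgeR adjusted p = 0.290). With 1 heart left out it lay between 0.15 (without WT replicate 3) and 0.48 (without WT replicate 1), with 0.27 without A178D replicate 4. With the offsets it was 0.16.

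Across the members, A178D replicate 4 was the highest heart for 6 of the 8 genes and among the 3 highest for all 8, and WT replicate 3 was the lowest for 5. A178D replicate 4 is the library with the fewest counts and the steepest length trend. With the offsets, the median log2 fold change of the 8 genes was 0.18 in place of 0.29, with 6 of 8 above 0. An unadjusted p under 0.05 was then reached by 4 of the 8 in place of 6, no longer by Hspb3 and Hspb8, and by 17.9% of all tested genes in place of 16.7%. With the offsets 2 of the 8 were called, Hspb1 and Hspb7, and 479 (3.45%) of all tested genes. Without A178D replicate 4 the median was 0.27, and 3 of the 8 were called, Hspb1, Hspb6 and Hspb7, where 369 (2.67%) of 13846 tested genes were. Of the 8, 5 then had an unadjusted p under 0.05, beside 16.9% of these genes. The part of the length trend in the differences that remained was not tested.

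**Figure D2:**
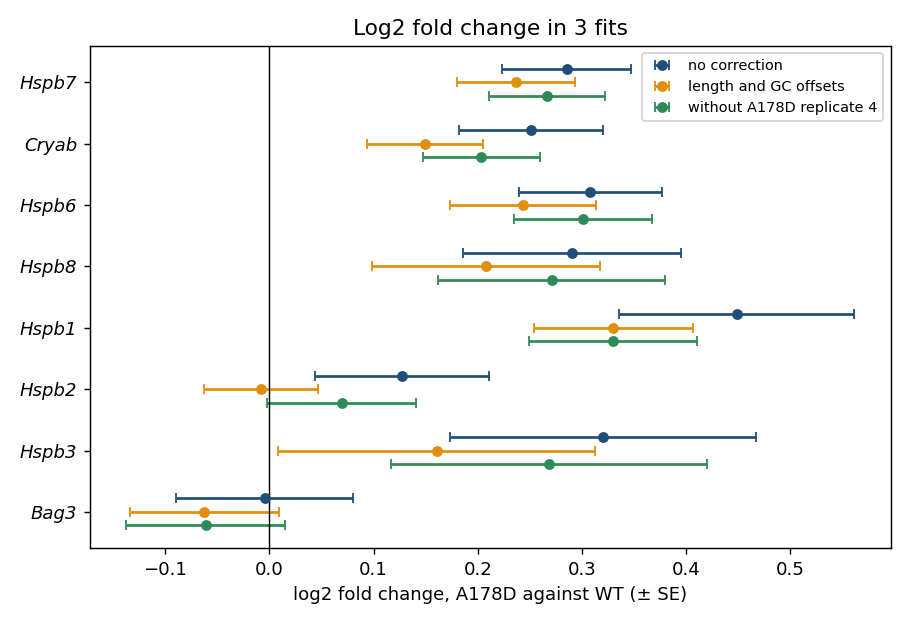
Log2 fold change of A178D against WT (horizontal axis, whiskers ± SE) for the 8 genes in 3 edgeR fits: all hearts with no correction, all hearts with length and GC offsets, and without A178D replicate 4. Offsets lower all 8 values, most for Hspb2, Hspb3 and Hspb1.

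Levels between the genes were compared per kb of joined exons. In the WT hearts the order was Hspb7 (1462 ± 44.0 CPM per kb, SD, n = 3), Cryab (1304 ± 39.0), Hspb6 (465 ± 39.4), Hspb8 (338 ± 64.2), Hspb1 (133 ± 8.93), Bag3 (128 ± 13.7), Hspb2 (101 ± 7.58) and Hspb3 (14.4 ± 3.29). Neighbours in this order had separate ranges over the 3 WT hearts, except Hspb1 and Bag3. In the A178D hearts the order was the same. There Hspb7 (1782 ± 80.5 CPM per kb, SD, n = 4) overlapped with Cryab (1552 ± 112) and Bag3 (127 ± 10.5) with Hspb2 (110 ± 9.85), while Hspb1 (182 ± 32.1) was above Bag3 in every heart. Among 13893 tested genes with a length, Hspb7 ranked 18 and Cryab 21 by level per kb over the 7 hearts, and Hspb3 ranked 2462. With the longest transcript as the length, Cryab (1727 CPM per kb in WT) was above Hspb7, so the order of these 2 depends on which exons are counted. Together the 7 small heat shock protein genes took 0.821%, 0.759% and 0.802% of scaled counts in the WT hearts and 0.968%, 0.943%, 0.931% and 1.02% in the A178D hearts, with no overlap. Of the summed level per kb of the 8 genes, Hspb7 held 37.1 ± 0.934% among WT hearts (SD, n = 3) and 37.5 ± 1.49% among A178D hearts (SD, n = 4), a difference within the SD. The share of Bag3 was 3.23 ± 0.275% among WT hearts (SD, n = 3) and 2.67 ± 0.134% among A178D hearts (SD, n = 4), and no test was made of it.

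**Figure D3:**
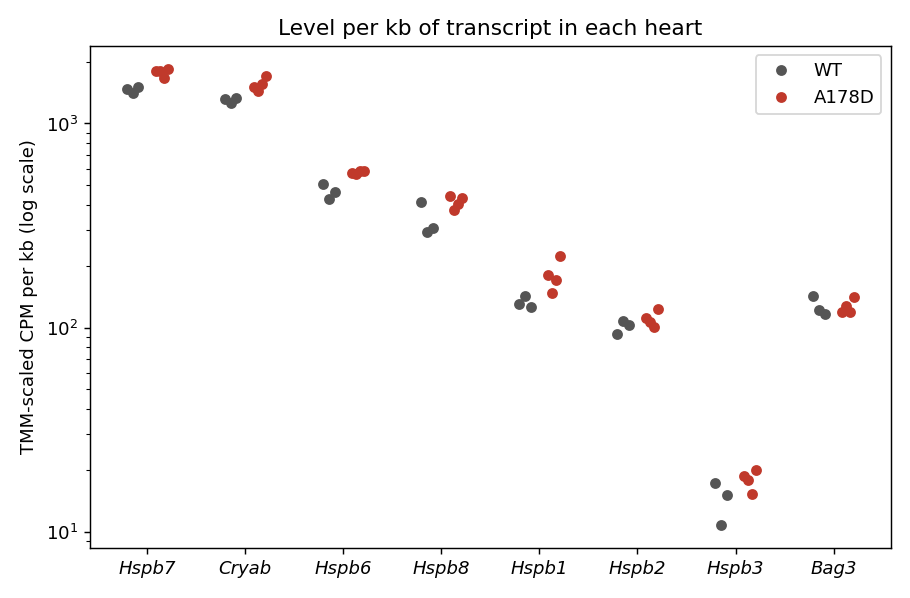
Level of the 8 genes in CPM per kb of joined exons (vertical axis, log scale) in each WT and A178D heart, 1 point per heart. Hspb7 and Cryab lie highest and Hspb3 lowest in both genotypes.

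Positions were taken from GENCODE M21 on GRCm38. Hspb2 (chr9:50751078-50752354, minus strand) and Cryab (chr9:50751325-50756636, plus strand) lie head to head and share 252 exon bases on opposite strands. Hspb6 (chr7:30552178-30555443) shares 122 exon bases with Proser3 and 3 with Lin37, both on the other strand. The sources used here do not say whether strand was used in counting, so reads of these shared bases cannot be told apart. How such reads were counted, and whether any were left out, was not tested. Proser3 was at 4.67 ± 0.859 CPM (SD, n = 3) in WT beside 1069 CPM for Hspb6, and Hspb2 at 84.2 ± 6.32 CPM (SD, n = 3) beside 1929 CPM for Cryab. Other tested genes within 10 kb of a member included 2310030G06Rik and 1110032A03Rik near Hspb2 and Cryab, Psenen, U2af1l4 and Igflr1 near Hspb6, and Srarp near Hspb7, and none of these was called.

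Heat shock elements are short repeats read by heat shock factors. The letters GAANNTTC and TTCNNGAA, each its own reverse complement, and the forms of 3 alternating units made from them were searched on both strands of RefSeq promoter windows (GRCm38.p6), from 250 bases before to 50 after a gene start. Windows were found for 6 of the 8 genes (7 windows), and not for Hspb2 and Cryab. GAANNTTC was found for Hspb1 (2 matches), Hspb3, Hspb6, Hspb8 and Bag3 and not for Hspb7, and was in 7.86% of all 32851 windows. The matches of Hspb1, Hspb3 and Hspb6 lay before the gene start. In Hspb8 the match began 2 bases after the gene start, and in Bag3 42 bases after it. For Hspb6 it was in the window of the start at chr7:30553301 and not in that of the start at chr7:30552540. TTCNNGAA, in 8.52% of all windows, and the longer forms, in 0.603%, were in none of the 7. A match describes letters only. The matches are printed with up to 11 bases on each side and the motif in capitals, to show the letters found in members with different fold changes. Read along the gene, the match was GAAGTTTC in Hspb1, Hspb6, Hspb8 and Bag3 and GAATTTTC in Hspb3. The other match of Hspb1, GAACCTTC (chr5:135887822-135887829, plus strand), lies close to the first and is printed without its neighbouring bases. The 5 longer stretches lie at chr5:135887791-135887820 (plus strand, Hspb1), chr5:116422844-116422873 (minus strand, Hspb8), chr7:30553170-30553199 (plus strand, Hspb6), chr13:113663882-113663911 (minus strand, Hspb3) and chr7:128523614-128523632 (plus strand, Bag3, which ends with its window).
Hspb1: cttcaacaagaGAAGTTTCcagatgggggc
Hspb8: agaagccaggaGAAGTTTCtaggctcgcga
Hspb6: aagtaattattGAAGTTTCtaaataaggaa
Hspb3: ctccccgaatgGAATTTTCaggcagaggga
Bag3: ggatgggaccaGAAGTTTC

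Of the other small heat shock protein genes, Hspb11 was the only 1 of 4 tested and was not called (log2 fold change -0.015, or -0.19 to 0.11 with 1 heart left out, edgeR adjusted p = 0.982, with at most 5.36 CPM in any heart), and Cryaa had 0 counts in all 7 hearts. None of 5 other Bag family genes was called in edgeR, and 2 had an unadjusted p under 0.05, as did 16.7% of all tested genes. The median log2 fold change of the 5 genes was -0.045. It lay between -0.081 and -0.011 with 1 heart left out and was -0.10 with the offsets. Bag2, an inhibitor of the ubiquitin ligase Stub1, had the smallest p of these, with a log2 fold change of 0.19 (edgeR adjusted p = 0.188). Of 20 partners of Bag3 in chaperone-assisted autophagy, 2 were called, both lower, where 2.35% of all tested genes were called in either direction. They included Flna, a filamin of non-muscle and smooth muscle cells (log2 fold change -0.43, SE 0.089, edgeR adjusted p = 0.023). The call of Flna was kept in 4 of 7 fits with 1 heart left out. It was lost without WT replicate 1, WT replicate 3 or A178D replicate 1. Flnc, the filamin of striated muscle, had 529, 449 and 417 CPM in WT and 570, 573, 532 and 496 CPM in A178D and was not called (log2 fold change 0.22, edgeR adjusted p = 0.212). The median of these partners was -0.013, and with 1 heart left out it lay between -0.028 and 0.011, so its sign was not stable. Their summed level was 4213, 4106 and 4138 CPM in WT and 4425, 4271, 4269 and 4395 CPM in A178D, with no overlap. Hspa8 was the most abundant partner, at 1022, 959 and 991 CPM in WT and 1225, 1041, 1109 and 1121 CPM in A178D. Its genotypes did not overlap either, and it was not called (edgeR adjusted p = 0.204). Of the 20 partners, 9 were above 0, beside 50.5% of all tested genes. Among 14 filament and Z-disc proteins, only Myot, a filamin-binding Z-disc protein, was called, higher in A178D, beside 2.35% of all tested genes. The log2 fold change of Myot was 0.84 (SE 0.14, edgeR adjusted p = 0.00875), and its call was lost without WT replicate 3. The median of the 14 was 0.036, and it lay between 0.0072 and 0.078 with 1 heart left out.

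None of the 3 heat shock factors was called in edgeR (median -0.13, which turned to 0.020 without WT replicate 3), and 1 had an unadjusted p under 0.05, Hsf2 (log2 fold change -0.25, edgeR adjusted p = 0.280). Of 22 heat shock factor 1 targets outside the 8 genes, 2 were called, both higher, beside 2.35% of all tested genes. Of these targets 10 had an unadjusted p under 0.05, as did 16.7% of all tested genes in either direction. Of the 22, 18 were above 0, as were 50.5% of all tested genes, with a median of 0.14. With 1 heart left out, between 15 (without A178D replicate 4) and 20 (without WT replicate 1) were above 0. The median then lay between 0.13 and 0.20, and it was 0.11 with the offsets. Hsph1, a nucleotide exchange factor of Hsp70, had 50.9, 47.7 and 45.3 CPM in WT and 94.9, 64.3, 104 and 87.4 CPM in A178D, a log2 fold change of 0.87 (SE 0.13, edgeR adjusted p = 0.00564) whose call was kept with any 1 heart left out. Hspe1, the co-chaperonin of mitochondria, had a log2 fold change of 0.38 (SE 0.080, edgeR adjusted p = 0.0274), and its call was kept only without A178D replicate 2 or A178D replicate 4. The stress-inducible Hsp70 genes Hspa1a and Hspa1b were low in every heart, at most 3.71 and 2.97 CPM, overlapped between genotypes and were not called. None of 8 cytosolic J-domain proteins was called in edgeR (1 with an unadjusted p under 0.05, median 0.029, or -0.035 to 0.061 with 1 heart left out), the smallest p being that of Dnajb4 (log2 fold change -0.18, edgeR adjusted p = 0.204). None of 11 tested kinases of small heat shock proteins was called in edgeR (1 with an unadjusted p under 0.05, median -0.020, or -0.043 to 0.0077 with 1 heart left out), the smallest p being that of Mapk11 (log2 fold change -0.41, edgeR adjusted p = 0.182). Mapkapk2, the most abundant kinase of this list, had a log2 fold change of 0.13.

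Markers in some lists moved with genotype, and fewer cells of a type and less RNA per cell cannot be told apart in bulk tissue. The paper counts Acta1 and Nppa, given below as skeletal muscle and atrial genes, in the foetal gene programme induced in A178D hearts. The source of their counts was not tested. Smooth muscle and pericyte markers summed to 1777, 1797 and 1709 CPM in WT and to 1345, 1477, 1556 and 1310.2 CPM in A178D, with no overlap. Of 13 genes, 6 were called, all lower, and 0 were above 0, where 2.35% of all tested genes were called and 50.5% were above 0. The number called was 2 without WT replicate 3, and 3 without WT replicate 1 or without A178D replicate 1, while 0 stayed above 0 in every fit with 1 heart left out. Acta2 (log2 fold change -0.59, edgeR adjusted p = 0.00587) and Myh11 (-0.67, edgeR adjusted p = 0.0146) were among these, and Abcc9 was the most abundant gene. The call of Acta2 was kept with any 1 heart left out, and that of Myh11 was lost without WT replicate 3 or WT replicate 4. Hspb1, Hspb6 and Cryab are known from smooth muscle too, and the part of smooth muscle in their counts was not tested. Of 12 skeletal muscle genes, 7 were tested and 3 were called higher: Acta1 (log2 fold change 2.64), Casq1 (1.14) and Ryr1, again beside 2.35% of all tested genes. The calls of Acta1 and Casq1 were kept with any 1 heart left out, and that of Ryr1 was lost in 5 of 7 such fits. Of the 7, 4 were above 0, while Mylpf (-0.61), Actn3 (-0.18) and Tnni2 (-0.14) were below 0 and not called. Acta1 was the most abundant and made up most of the summed level, which was 194, 84.9 and 82.6 CPM in WT and 831, 522, 728 and 697 CPM in A178D, while Myh1, Myh2, Myh4 and Pvalb did not exceed 0.293 CPM in any heart. Of the 2 tested atrial genes, Nppa was called (log2 fold change 1.31, edgeR adjusted p = 0.0146), at 249, 188 and 109 CPM in WT and 529, 364, 322 and 588 CPM in A178D, a call lost without WT replicate 3, WT replicate 4 or A178D replicate 1. Myl4 was not called (log2 fold change 0.65, edgeR adjusted p = 0.171), at 1.90, 1.89 and 1.85 CPM in WT and 4.01, 2.14, 2.60 and 3.06 CPM in A178D, with no overlap. In the endothelial list 1 of 10 was called, Flt1, lower (log2 fold change -0.35). Of the 10, 2 had an unadjusted p under 0.05, as did 16.7% of all tested genes in either direction. Of these markers 6 were above 0, with a median of 0.055, or -0.0025 to 0.068 with 1 heart left out. The call of Flt1 was kept in 3 of 7 such fits. Cldn5 had the highest value, 0.39, with no overlap of the genotypes, and was not called (edgeR adjusted p = 0.0764). Kdr was the most abundant gene. In the fibroblast list 1 of 9 was called, Col3a1, higher (log2 fold change 0.62). The call of Col3a1 was lost without WT replicate 3 or without A178D replicate 1, 2 or 3. An unadjusted p under 0.05 was reached by 4 of the 9, beside 16.7% of all tested genes. Of the 9, 8 were above 0 and the median was 0.14. Offsets lowered this median to 0.072, and it was 0.087 without WT replicate 1. Gsn was the most abundant of these, and their sums of 2518, 2813 and 2373 CPM in WT and 2932, 2839, 2740.2 and 2894 CPM in A178D overlapped. In the macrophage list 1 of 9 was called, Lyz2, higher (0.40), which was also the most abundant gene. Its call was kept only without A178D replicate 3 or A178D replicate 4. All 9 macrophage markers were above 0, and 4 had an unadjusted p under 0.05, beside 16.7% of all tested genes. Their median was 0.29, with 0.18 under the offsets and 0.16 without WT replicate 1. Macrophage markers summed to 312, 403 and 369 CPM in WT and to 447, 446, 402 and 458 CPM in A178D, and the genotypes overlapped. None of the cardiomyocyte (10 tested, 3 with an unadjusted p under 0.05), adipocyte (4 tested, 0), erythrocyte (4 tested, 0), Schwann cell (5 tested, 0) and immediate early genes (7 tested, 0) was called in edgeR. Of all tested genes, 16.7% had an unadjusted p under 0.05. The part of these lists in the values of the 8 genes was not tested.

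The genes whose pattern over the 7 hearts was most like that of each member were found by the root mean square difference of centred log2 CPM, among 12204 tested genes with a mean count of at least 50. They were Xrcc6 (0.034) and Ifnlr1 (0.035) for Hspb7, Mtif3 (0.034) and Nudt9 (0.036) for Cryab, Gpd1 (0.032) and Dcakd (0.034) for Hspb6, and Ece2 (0.077) and Khk (0.079) for Hspb1. For Hspb8 they were Grip2 (0.044) and Aldh18a1 (0.056), for Bag3 Aldh4a1 (0.033) and Phyhip (0.035), for Hspb2 Mrpl21 (0.019) and Rpl37a (0.019), and for Hspb3 Sesn2 (0.080) and Vsig10l (0.093). Of these 16 genes only Gpd1 was called (log2 fold change 0.31, edgeR adjusted p = 0.0359), a call lost with the length and GC offsets (edgeR adjusted p = 0.0559) and in 5 of 7 fits with 1 heart left out.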

How the data were processed

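RNA of 7 left ventricles was read as stranded poly(A) libraries. The submitters' processing notes name bcl2fastq 2.18.0.12, HISAT2 2.1.0, SAMtools 1.6 and DESeq2 1.26.0 with GRCm38; the counting program, its strand setting and annotation are not given in the sources used here. The authors deposited whole-number counts per gene, which were used for every test, and a DESeq2-scaled signal table, also deposited, used only to read size factors. Of counts from 1 to 20, between 17.6% and 20.3% per library were odd, so a table with counts halved was an alternative. Of 21257 entries, 20989 had a GENCODE M21 name, and 442 with counts identical to another entry were reduced to 219, as were repeats of an identifier with the same few counts. Hbb-bs had 2 entries, of which the first was read. Genes with at least 10 counts in 3 libraries were tested with edgeR 4.0.16 (TMM, quasi-likelihood, Benjamini-Hochberg over all tested genes, R 4.3.3), tested on simulated data first. Alternatives used DESeq2 1.42.0, limma 3.58.1, and mgcv 1.9.3 for the offsets. Named genes were the 8, called members of each list or else the member with the smallest p, genes within 10 kb and the nearest patterns; Ttn, Flnc, Hspa1a, Hspa1b, Cryaa, Mapkapk2, Myl4, Mylpf, Actn3, Tnni2, Cldn5 and markers near 0 counts were named after their values were seen. The members and lists were chosen with earlier results of these data known. Protein sequences were not analysed here. Some genes that the rule for named genes takes are not reported here.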

Additional observations from a re-analysis of the deposited data

Results flagged for a closer look

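In 8 of 105 groups of A178D values, 1 heart stood apart from the other hearts of its group by Dixon's gap ratio, and about 5% of groups do so by chance. The share of Hspb3 in the summed level per kb was 0.333% in A178D replicate 3, where the other A178D hearts lay between 0.391% and 0.394%. The ratio of Cryab to Hspb2 in level per kb was 15.5 in A178D replicate 3 and 13.6 to 13.8 in the others. Col3a1 had 324 CPM in A178D replicate 2 and 303 to 306 CPM in the others. Dnajb4 had 131 CPM in A178D replicate 4 and 136 to 137 CPM in the others. Gpd1 had 104 CPM in A178D replicate 2 and 111 to 112 CPM in the others. Igflr1 had 4.14 CPM in A178D replicate 4 and 2.60 to 2.85 CPM in the others. Hspa1a had 3.71 CPM in A178D replicate 4 and 0.991 to 1.38 CPM in the others. Mapkapk2 had 491 CPM in A178D replicate 4 and 424 to 433 CPM in the others.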

How the results depend on the processing

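The log2 fold changes of Hspb1, Hspb3, Hspb6, Hspb7, Hspb8 and Cryab were above 0 under all 17 alternatives. The number of called genes (327) was 686 with DESeq2, 64 at an adjusted p under 0.01, and 53 to 453 with 1 heart left out. With 1 heart left out, the log2 fold change lay between 0.33 and 0.54 for Hspb1, 0.25 and 0.38 for Hspb6, 0.26 and 0.32 for Hspb7, 0.20 and 0.46 for Hspb8, and 0.15 and 0.48 for Hspb3. Hspb1 passed the threshold with DESeq2 (0.45), no filter (0.44) and offsets (0.33), and Cryab with DESeq2 (0.25). Hspb6 no longer passed with offsets (0.24).

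Replicate numbers 1, 3 and 4 occur in both genotypes. Deviations of same-numbered hearts from the mean of replicates 1, 3 and 4 of their genotype correlated at -0.0094, -0.022 and -0.050 across genes. The numbers were therefore not read as pairs, and none of these hearts correlated best with its own number. With the replicate block, over 6 hearts, 272 genes were called. Hspb1 was then called (0.53, and 0.40 with offsets), and Hspb6 (0.32, and 0.25 with offsets) and Hspb7 (0.28, and 0.23 with offsets) were not. The median of heat shock factors was then -0.062 and the called number was 0 for endothelium, 2 for macrophages and 2 for skeletal muscle. With block and offsets the called number was 2 for filament and Z-disc proteins, 6 for heat shock factor 1 targets, 2 for fibroblasts and 0 for macrophages, whose median was 0.16.

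With offsets the median of other Bag family genes was -0.10, and the called number was 2 for filament and Z-disc proteins and 3 for fibroblasts, whose median was 0.072, with 0.18 for macrophages. DESeq2 called 2 genes of endothelium, 2 of fibroblasts and 3 of macrophages, and leaving out the filter gave 2 of fibroblasts and 2 of macrophages. With at least 10 counts in every library the skeletal muscle median was 1.14, and no adipocyte gene was left. With 1 heart left out, called numbers ranged from 0 to 2 for Bag3 partners, filament and Z-disc proteins, endothelium and fibroblasts, 1 to 2 for heat shock factor 1 targets, 0 to 1 for atrial and macrophage genes, 2 to 3 for skeletal muscle, and 2 to 6 for smooth muscle. Medians then ranged from -0.081 to -0.011 for other Bag family genes, -0.028 to 0.011 for Bag3 partners, -0.035 to 0.061 for J-domain proteins, -0.043 to 0.0077 for kinases, 0.087 to 0.21 for fibroblasts, 0.0072 to 0.078 for filament and Z-disc proteins, -0.23 to 0.020 for heat shock factors, -0.52 to -0.35 for smooth muscle, 0.61 to 1.13 for skeletal muscle, -0.0025 to 0.068 for endothelium, 0.16 to 0.34 for macrophages and 0.11 to 0.75 for Schwann cells.

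With the longest transcript as length, levels per kb in WT were 148 for Hspb1, 109 for Hspb2, 540.1 for Hspb6 and 1727 for Cryab, and in A178D 669 for Hspb6, 444 for Hspb8 and 2056 for Cryab. Shares in A178D were then 2.20% for Hspb2 and 0.332% for Hspb3, and in WT and A178D 32.6% and 32.9% for Hspb7, 38.5% and 37.9% for Cryab, and 2.84% and 2.35% for Bag3. The causes of these changes were not tested.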
